A study of Mus musculus with 8 samples.

Results

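The levels of 10 genes of the oxidative stress response and of metal binding were followed in the pancreas of lean and obese mice. They are Nfe2l2, Nqo1, Hmox1, Gclc, Gclm, Txnrd1, Srxn1, Slc7a11, Mt1 and Mt2, taken by symbol, and all 10 are among the 15047 genes of the deposited expression values. RNA was sequenced from the pancreas of 8 male mice, namely 3 C57BL/6 WT mice on a low-fat diet (LFD), 3 C57BL/6 WT mice on a diet in which fat supplied 60% of the calories (high-fat diet, HFD), and 2 leptin-deficient C57BL/6J; ob/ob mice. All mice were 4 weeks old when their diets began, and LFD and HFD lasted 10 weeks, while the ob/ob mice received standard chow. Genotype and chow therefore both separate ob/ob from LFD mice, and their parts cannot be told apart. By the account of the study, the pancreas of all 8 mice had received mT organoids, which are organoids grown from pancreatic tumors of genetically engineered mice with Pdx1-Cre, although the sample labels give only the tissue. Replicates are separate animals. Gene positions are on GRCm38 by Gencode M21. The tissue was sequenced whole, so fewer cells of a type and less RNA per cell cannot be told apart.

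The NRF2 protein, encoded by Nfe2l2, is held in the cytoplasm and degraded through KEAP1, and reaches the nucleus when oxidants or electrophiles modify KEAP1. There it binds antioxidant response elements (ARE) and drives genes that make glutathione (Gclc and Gclm), import cystine for it (Slc7a11), reduce thioredoxin (Txnrd1) and peroxiredoxins (Srxn1), and detoxify quinones (Nqo1) and haem (Hmox1). Metallothioneins, encoded by Mt1 and Mt2, are small cysteine-rich proteins that bind zinc and copper, and their genes respond to metals through metal response elements (MRE) and the factor MTF1, as well as to glucocorticoids and oxidants. In the pancreas, zinc is handled by both the secretory acinar cells and the insulin-storing beta cells.

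The values are regularized log (rlog) values, which are normalised read counts on the log2 scale in which differences of genes with few reads are shrunk. A log2 difference of 1 is a doubling before this shrinkage. Over all genes, the medians of the mice ranged from 7.09 to 7.25. Read depth per mouse is unknown, so the spread between mice is the only error given here. A list of 23 acinar markers, which are digestive enzymes and acinar transcription factors, checks the tissue and stood apart in some mice. The mean of this list, named the acinar level below, was 17.57 to 18.02 in LFD mice. For HFD replicates 1 to 3 it was 17.88, 15.80 and 13.85, and for the ob/ob pair it was 17.17 and 14.18. Cela2a and Prss2 were its highest genes, and none was near 0, the lowest being Ptf1a with a mean rlog value of 7.18. HFD replicate 1 lay within the LFD range of the acinar level, while HFD replicate 3 and ob/ob replicate 2 had the lowest values.

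Against LFD, the 10 genes went in both directions, with 5 means higher and 5 lower in each obesity model. Nfe2l2, the thioredoxin system genes Txnrd1 and Srxn1, Nqo1 and Hmox1 had higher means in HFD and in ob/ob mice. Gclc, Gclm and Slc7a11, which supply glutathione, and both metallothioneins had lower means. In the test over all genes with limma, 0% of the 15047 genes, and none of the 10, had a Benjamini-Hochberg adjusted p under 0.05 in HFD against LFD, ob/ob against LFD or ob/ob against HFD, so no difference below passed that threshold in this fit. The smallest adjusted p over all genes was 0.0864, 0.135 and 0.883 in these comparisons. The study tested gene counts with DESeq2 instead, and reported genes with an adjusted p under 0.05 between obese and lean mice. In the limma fit of rlog values, the count of 0 in HFD against LFD depended on HFD replicate 1. Without that mouse 2812 genes passed in HFD against LFD, among them Nfe2l2, Hmox1, Gclc, Mt1 and Mt2. Without HFD replicate 2, or without HFD replicate 3, 0 genes passed. At an unadjusted p under 0.05, 4 of the 10 were lower in HFD than in LFD, where 8.35% of all genes were, and 0 were higher, where 11.5% were. In ob/ob against LFD, 4 were lower and 1 was higher, beside 7.18% and 11.6% of all genes. The median log2 difference of the 10 genes was 0.01 in HFD and -0.0022 in ob/ob, beside 0.03 and 0.04 for all genes. The comparisons with LFD share the same 3 LFD mice.

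**Figure D1:**
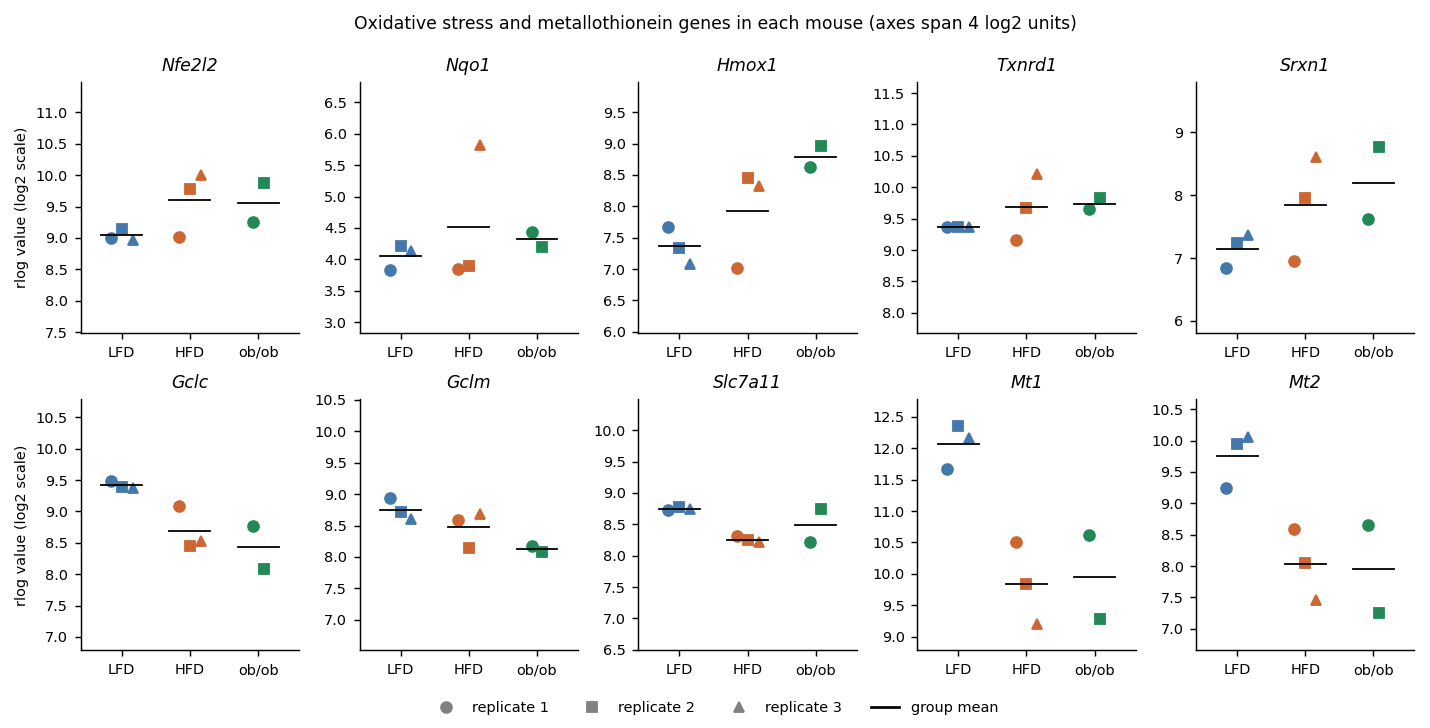
Each panel plots the rlog value (log2 scale) of 1 gene in the 8 mice, grouped as LFD, HFD and ob/ob, with the symbol giving the replicate and the bar the group mean. Mt1, Mt2 and Gclc lie below every LFD mouse in all 5 obese mice, while Hmox1 is highest in the 2 ob/ob mice.

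The metallothioneins had the largest differences among the 10 genes. Mt1 had rlog values of 11.67, 12.36 and 12.17 in LFD replicates 1 to 3, of 10.50, 9.83 and 9.20 in the HFD replicates in the same order, and of 10.63 and 9.28 in the ob/ob pair. Every one of the 5 obese mice was below every LFD mouse. The mean level of Mt1 in LFD was 12.07 ± 0.36 (SD, n = 3). It was 9.84 ± 0.65 (SD, n = 3) with HFD and 9.95 ± 0.95 (SD, n = 2) with the ob/ob genotype. The log2 difference in Mt1 was -2.22 (standard error 0.42, adjusted p = 0.174 with limma) for HFD against LFD, a 4.67-fold lower level on the rlog scale, and 0.0997% of all genes had a lower difference. For ob/ob against LFD it was -2.11 (standard error 0.47, adjusted p = 0.157), a 4.33-fold lower level.

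Mt2 was also lower in every obese mouse. It had rlog values of 9.24, 9.95 and 10.06 in LFD replicates 1 to 3, of 8.58, 8.04 and 7.46 in the HFD replicates in the same order, and of 8.66 and 7.25 in the ob/ob pair. The lowest values were those of ob/ob replicate 2 for Mt2 and of HFD replicate 3 for Mt1. The log2 difference was -1.72 (standard error 0.42, adjusted p = 0.178 with limma) for HFD and -1.79 (standard error 0.47, adjusted p = 0.186) for ob/ob, which are 3.29-fold and 3.47-fold lower levels. Mt1 and Mt2 had a Pearson r of 0.989 over the 8 mice, which is a description of values that share their libraries. Salmon assigns reads of similar transcripts by probability, so reads of these related genes could in part be exchanged. Without HFD replicate 1, the adjusted p for HFD against LFD was 0.0154 for Mt1, with a log2 difference of -2.55, and 0.0221 for Mt2, with -2.00. The adjusted p was 0.504 for each gene without HFD replicate 2 and 0.435 for each without HFD replicate 3.

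The acinar level moved with both metallothioneins, since the mice with the lowest acinar level, HFD replicate 3 and ob/ob replicate 2, were also those with the lowest Mt1 and Mt2. All 23 acinar markers had a lower mean in HFD and in ob/ob than in LFD, although with the spread between mice 1 of them had an unadjusted p under 0.05 in each comparison. The log2 of their summed level was 23.85 to 24.31 in LFD, 20.09 to 24.19 in HFD and 20.43 to 23.48 in ob/ob. HFD replicate 1, whose acinar level of 17.88 was inside the LFD range, had Mt1 at 10.50, below the lowest LFD value of 11.67, and Mt2 at 8.58, below the lowest LFD value of 9.24. With the acinar level as a covariate, the log2 difference of Mt1 was -1.51 (standard error 0.20, adjusted p = 0.0847 with limma) for HFD and -1.34 (standard error 0.22, adjusted p = 0.0952) for ob/ob. That of Mt2 was -1.03 (adjusted p = 0.277) and -1.05 (adjusted p = 0.25). Without the 2 mice with the lowest acinar level, Mt1 differed by -1.90 in HFD and by -1.44 in ob/ob. Mt2 then differed by -1.44 in HFD and by -1.09 in ob/ob. Only ob/ob replicate 1 remains of its group in that fit. The part of acinar cells in the Mt1 and Mt2 values was not tested.

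**Figure D2:**
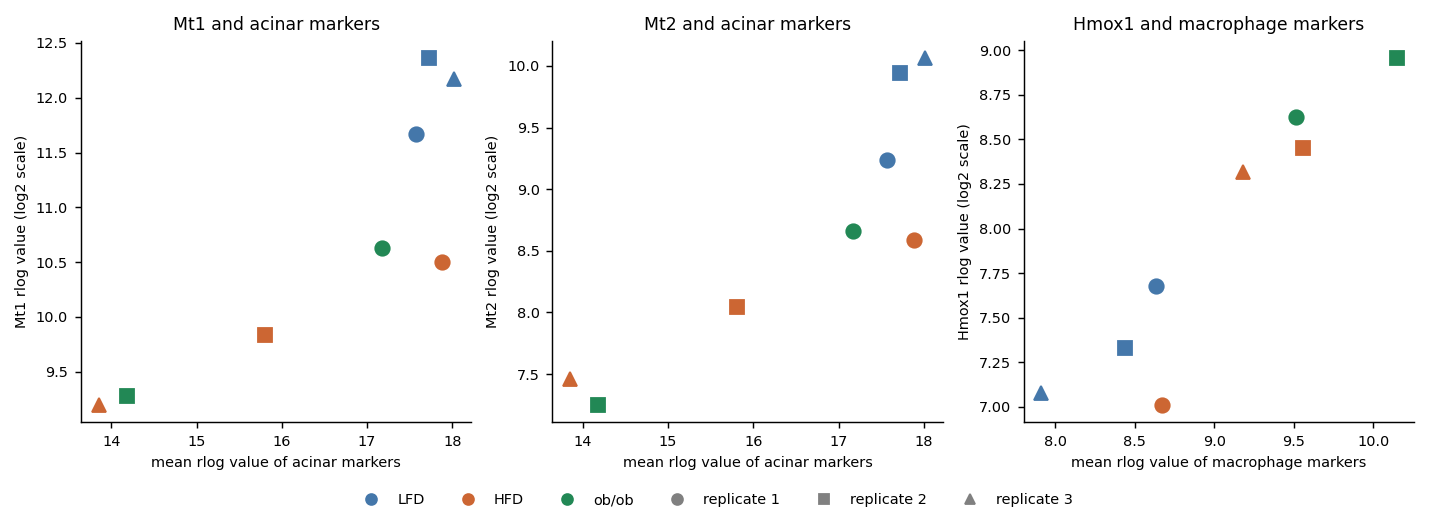
The rlog values of Mt1 and Mt2 are plotted against the mean rlog value of 23 acinar markers, and that of Hmox1 against the mean of 14 macrophage markers, with 1 point a mouse, coloured by group and shaped by replicate. HFD replicate 1 lies at an acinar level of 17.88 with the LFD mice but at a lower Mt1, 10.50, and the 2 ob/ob mice have the highest Hmox1.

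Mt1 and Mt2 are neighbours on chromosome 8 of GRCm38. Gencode M21 places Mt2 at 94172664 to 94173568 and Mt1 at 94179082 to 94180327, both on the plus strand, with 5513 bases between them. The 300 bases around each start, 250 before and 50 after the start in RefSeq (GRCm38.p6), are shown because both genes separated the LFD mice from all obese mice. Capitals mark matches to the MRE core, searched as TGCACNC and TGCGCNC on both strands. The window of Mt2 is chr8:94172368-94172667 and that of Mt1 is chr8:94178839-94179138, both on the plus strand. For both genes the RefSeq start differs from that of Gencode.
Mt2: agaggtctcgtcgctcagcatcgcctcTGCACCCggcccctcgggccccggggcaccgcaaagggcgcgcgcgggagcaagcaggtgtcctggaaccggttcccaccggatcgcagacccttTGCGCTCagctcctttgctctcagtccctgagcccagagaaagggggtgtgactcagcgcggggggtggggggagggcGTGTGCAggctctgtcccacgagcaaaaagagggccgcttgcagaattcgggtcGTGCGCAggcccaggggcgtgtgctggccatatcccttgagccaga
Mt1: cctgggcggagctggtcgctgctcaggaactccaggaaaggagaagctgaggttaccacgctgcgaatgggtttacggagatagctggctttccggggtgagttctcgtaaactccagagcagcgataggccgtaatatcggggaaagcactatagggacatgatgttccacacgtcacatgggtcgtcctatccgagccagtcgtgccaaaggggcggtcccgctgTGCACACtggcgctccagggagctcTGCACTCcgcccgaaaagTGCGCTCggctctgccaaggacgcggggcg
The window of Mt2 held 4 matches and that of Mt1 held 3. Among the other genes, the window of Gclm also held 3 and that of Srxn1 held 1, while 25.7% of the 32851 RefSeq windows of this length held at least 1 and 1.97% held 3 or more. A match is a description of the letters and not a site of binding.

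In the window search for the ARE core, TGACNNNGC on both strands, 12.4% of all windows held a match. Of the 10 genes, 8 had a window in RefSeq, and Hmox1 and Gclc did not. Matches lay in the windows of Nfe2l2, Srxn1, Gclm, Mt2 and 1 of the 3 starts of Txnrd1. They are shown with 8 bases on each side, with the match in capitals and on the strand of the gene.
Nfe2l2: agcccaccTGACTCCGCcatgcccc
Srxn1: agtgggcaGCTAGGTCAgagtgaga
Gclm: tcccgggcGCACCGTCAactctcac
Mt2: agggggtgTGACTCAGCgcgggggg
Txnrd1: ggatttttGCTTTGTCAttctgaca
Positions count the start base as 1, with no position 0. The match of Nfe2l2 begins at -240, that of Gclm at -134 and that of Txnrd1 at -92. That of Mt2 begins at -79 and that of Srxn1 at 29. The match of Mt2 also holds TGACTCA, the core bound by AP-1, and the match of Gclm overlaps with an MRE match. The windows of Slc7a11, Nqo1 and Mt1 and the other starts of Txnrd1 held no ARE match. Only this core was searched, so elements with other letters or outside the windows would be missed.

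**Figure D3:**
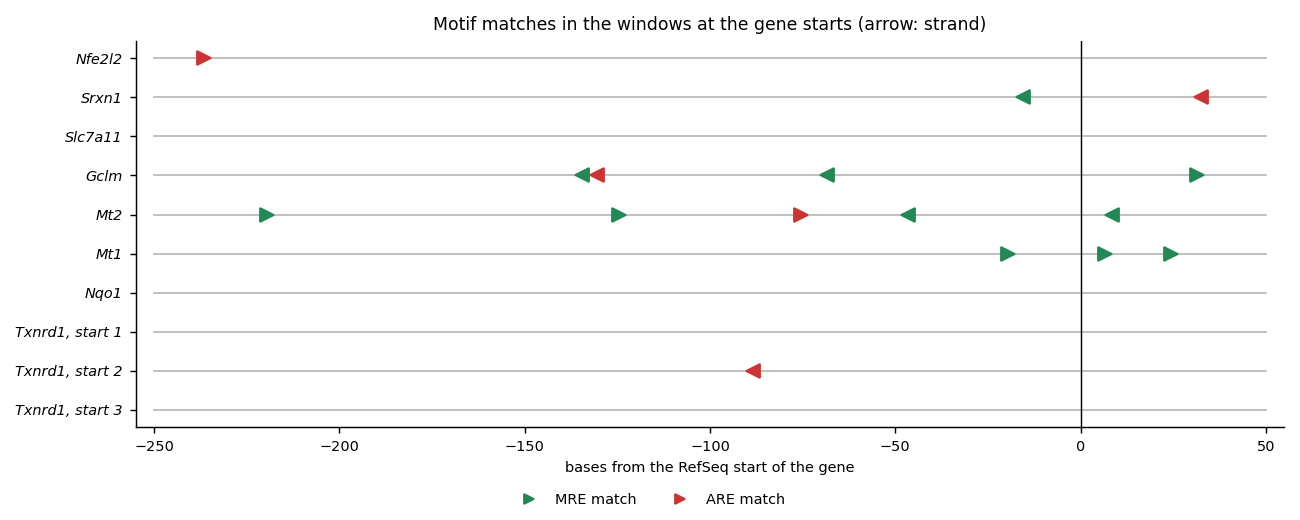
Positions of MRE and ARE matches are drawn in bases from the RefSeq start, with 1 line for each of 10 windows of 8 genes and the arrow giving the strand. Mt2, Mt1 and Gclm hold 4, 3 and 3 MRE matches, and Slc7a11 and Nqo1 hold none of either motif.

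The genes of glutathione supply had lower means in both obesity models. Gclc (chromosome 9, 77754535 to 77794485, plus strand) encodes the catalytic subunit of glutamate-cysteine ligase, the rate-limiting enzyme of glutathione synthesis. It had rlog values of 9.49, 9.38 and 9.38 in LFD replicates 1 to 3, of 9.09, 8.45 and 8.53 in the HFD replicates in the same order, and of 8.77 and 8.09 in the ob/ob pair. All 5 obese mice were below all LFD mice. Its log2 difference was -0.73 (standard error 0.24, adjusted p = 0.194 with limma) for HFD and -0.99 (standard error 0.26, adjusted p = 0.189) for ob/ob. Without HFD replicate 1, Gclc differed by -0.92 between HFD and LFD, with an adjusted p of 0.0271. Without HFD replicate 2 it differed by -0.61, with an adjusted p of 0.504. With the acinar level as a covariate its difference was -0.40 in HFD (adjusted p = 0.464) and -0.64 in ob/ob (adjusted p = 0.334). The part of acinar cells in the Gclc values was not tested.

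Gclm (chromosome 3, 122245557 to 122270732, plus strand) encodes the modifier subunit of the same ligase. Its rlog values were 8.94, 8.71 and 8.61 in LFD replicates 1 to 3, 8.58, 8.15 and 8.68 in the HFD replicates in the same order, and 8.18 and 8.08 in the ob/ob pair. Both ob/ob mice were below the LFD mice, whereas HFD replicate 3 was within the LFD range. The log2 difference of Gclm was -0.28 (standard error 0.19, adjusted p = 0.4185 with limma) for HFD and -0.62 (standard error 0.21, adjusted p = 0.221) for ob/ob.

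Slc7a11 (chromosome 3, 49892526 to 50443614, minus strand) encodes the transport subunit of the cystine-glutamate exchanger. Its rlog values were tight in LFD, at 8.73, 8.77 and 8.74 in replicates 1 to 3, and in HFD, at 8.31, 8.24 and 8.21. The ob/ob mice split, with 8.22 in replicate 1 and 8.75 in replicate 2, the latter within the LFD range. For Slc7a11 the log2 difference was -0.49 (standard error 0.18, adjusted p = 0.21 with limma) for HFD and -0.26 (standard error 0.20, adjusted p = 0.455) for ob/ob. Without ob/ob replicate 1 the difference for ob/ob was 0.0020. HFD replicate 1 was below all LFD mice in Slc7a11 at an acinar level within the LFD range. With that level as a covariate the HFD difference was -0.58 (adjusted p = 0.363). The part of acinar cells in the Slc7a11 values was not tested.

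Nfe2l2 and the genes of the thioredoxin system had higher means in obese mice, with HFD replicate 1 at LFD values or lower. Nfe2l2 (chromosome 2, 75675513 to 75704641, minus strand) had rlog values of 8.9993, 9.15 and 8.97 in LFD replicates 1 to 3, of 9.02, 9.77 and 10.00 in the HFD replicates in the same order, and of 9.25 and 9.88 in the ob/ob pair. Its log2 difference was 0.56 (standard error 0.27, adjusted p = 0.289 with limma) for HFD and 0.52 (standard error 0.31, adjusted p = 0.356) for ob/ob. Without HFD replicate 1 it was 0.85 in HFD, with an adjusted p of 0.0318. Without HFD replicate 2 it was 0.47, with an adjusted p of 0.572. With the acinar level as a covariate the differences of Nfe2l2 were 0.11 and 0.04 (adjusted p = 0.837 and 0.965), and the part of acinar cells was not tested. NRF2 is regulated chiefly through the stability of the protein, which was not measured here.

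Srxn1 (chromosome 2, 152105516 to 152111376, plus strand) encodes sulfiredoxin, which reduces over-oxidised peroxiredoxins. It had rlog values of 6.84, 7.23 and 7.36 in LFD replicates 1 to 3, of 6.95, 7.96 and 8.61 in the HFD replicates in the same order, and of 7.63 and 8.77 in the ob/ob pair. The highest values were those of HFD replicate 3 and ob/ob replicate 2, the mice with the lowest acinar level. The log2 difference was 0.70 (standard error 0.44, adjusted p = 0.39 with limma) for HFD and 1.06 (standard error 0.49, adjusted p = 0.281) for ob/ob. With the acinar level as a covariate, they were -0.05 and 0.24 (adjusted p = 0.954 and 0.804). Leaving out HFD replicate 3 gave 0.31 and leaving out HFD replicate 1 gave 1.14 for HFD. Without ob/ob replicate 2 or 1 the ob/ob difference of Srxn1 was 0.48 or 1.63. The part of acinar cells in the Srxn1 values was not tested.

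Txnrd1 (chromosome 10, 82833951 to 82897712, plus strand), the gene of cytosolic thioredoxin reductase, was at 9.37, 9.36 and 9.37 in LFD replicates 1 to 3, at 9.15, 9.67 and 10.20 in the HFD replicates in the same order, and at 9.65 and 9.83 in the ob/ob pair. The LFD mice lay between 9.36 and 9.37, and 4 of 5 obese mice were above and HFD replicate 1 was below them. The log2 difference was 0.31 (standard error 0.25, adjusted p = 0.486 with limma) for HFD and 0.37 (standard error 0.28, adjusted p = 0.456) for ob/ob. With the acinar level as a covariate it was -0.05 and -0.02, and the part of acinar cells was not tested.

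Nqo1 (chromosome 8, 107388225 to 107403206, minus strand), which encodes a quinone reductase and is a common readout of NRF2 activity, was low in this tissue and did not separate the groups. Its rlog values were 3.84, 4.21 and 4.13 in LFD replicates 1 to 3, 3.84, 3.90 and 5.82 in the HFD replicates in the same order, and 4.43 and 4.20 in the ob/ob pair. A single mouse, HFD replicate 3, was high. For Nqo1 the log2 difference was 0.46 (standard error 0.51, adjusted p = 0.617 with limma) for HFD, and -0.19 without HFD replicate 3. For ob/ob it was 0.26 (standard error 0.57, adjusted p = 0.812). At this level rlog shrinks differences.

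Hmox1 (chromosome 8, 75093621 to 75100589, plus strand) encodes haem oxygenase 1, which breaks haem into biliverdin, iron and carbon monoxide and is abundant in macrophages that clear red cells. Among the 10 genes it had the largest upward difference in ob/ob against LFD, whereas in HFD against LFD that of Srxn1 was larger. Hmox1 had rlog values of 7.68, 7.33 and 7.08 in LFD replicates 1 to 3, of 7.01, 8.45 and 8.32 in the HFD replicates in the same order, and of 8.63 and 8.96 in the ob/ob pair. Both ob/ob mice were above all other mice, and HFD replicate 1 was the lowest of all 8. The log2 difference was 1.43 (standard error 0.42, adjusted p = 0.2005 with limma) for ob/ob against LFD, a 2.69-fold higher level, and 0.56 (standard error 0.37, adjusted p = 0.404) for HFD against LFD. Without HFD replicate 1, the adjusted p of Hmox1 was 0.0239 for HFD against LFD, at a log2 difference of 1.02. Without HFD replicate 2 it was 0.758, at 0.30. HFD replicate 1 is in neither group of ob/ob against LFD, so that difference stayed at 1.43 without it. There the standard error changed from 0.42 to 0.23 and the adjusted p was 0.0498. With only the 2 groups compared, the adjusted p of Hmox1 for ob/ob was 0.0655.

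Markers of macrophages were higher in the mice with high Hmox1, with HFD replicate 1 as an exception. Its Hmox1 was the lowest of the 8 mice, at 7.01, while its mean macrophage marker level of 8.67 lay above the highest LFD value of 8.63. Of 14 macrophage markers, 13 had higher values in both ob/ob mice than in every LFD mouse, beside 24.1% of all genes, and 9 were higher in all HFD mice, beside 12.9% of all genes. The mean rlog value of the list was 7.91 to 8.63 in LFD, 8.67 to 9.56 in HFD and 9.51 to 10.15 in ob/ob. The log2 of its summed level was 13.42 to 13.93 in LFD, 14.21 to 15.16 in HFD and 14.83 to 15.70 in ob/ob. Lyz2 and Mrc1 were its highest genes, Marco was the single marker with a lower mean, and none was at 0. The parts of macrophages and of acinar cells in the Hmox1 values were not tested. With the acinar level as a covariate, Hmox1 differed by 0.89 (standard error 0.34, adjusted p = 0.423 with limma) in ob/ob and by 0.07 in HFD.

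**Figure D4:**
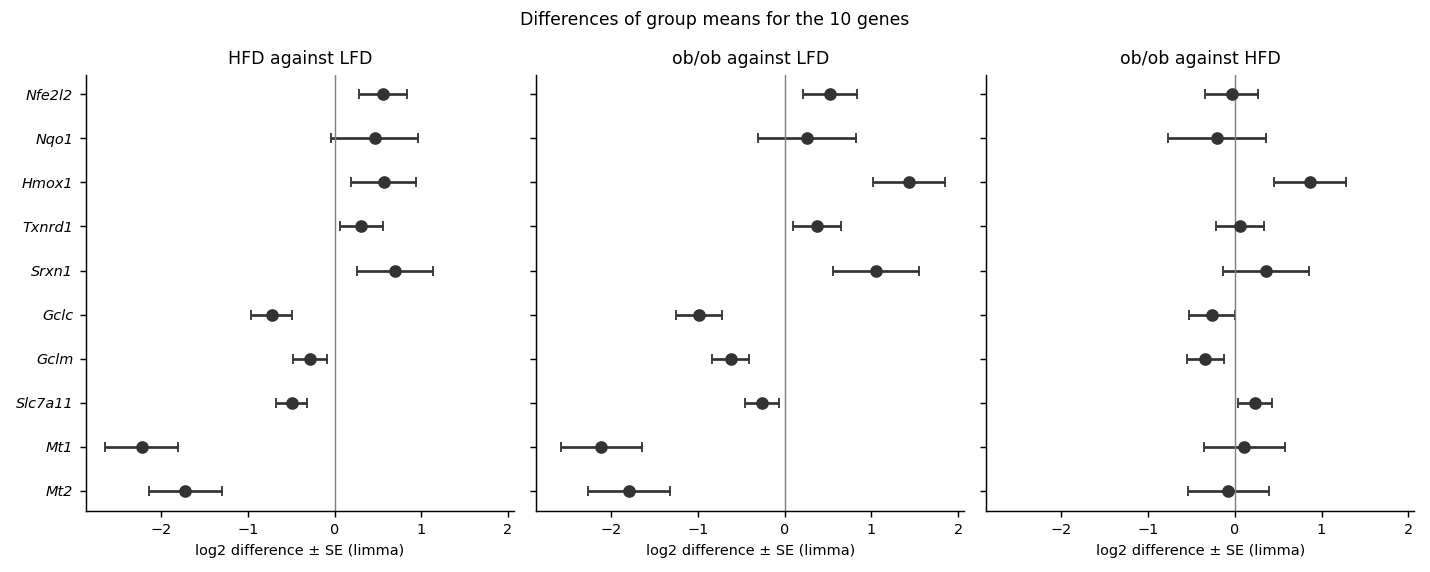
Points give the log2 difference of group means from limma for the 10 genes in HFD against LFD, ob/ob against LFD and ob/ob against HFD, and bars give the standard error. Mt1 and Mt2 lie at -2.22 and -1.72 in HFD and at -2.11 and -1.79 in ob/ob, while Hmox1 has the largest difference between the obesity models, 0.87.

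The groups of mice did not overlap for some of the 10 genes. In HFD against LFD this held for Gclc, Slc7a11, Mt1 and Mt2, all lower in HFD, where 12.3% of all genes were lower without overlap, and for 0 genes that were higher, where 12.9% of all genes were. In ob/ob against LFD it held for Gclc, Gclm, Mt1 and Mt2, all lower, beside 21.8% of all genes, and for Nfe2l2, Hmox1, Txnrd1 and Srxn1, all higher, beside 24.1% of all genes.

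Between the obesity models, Hmox1 was the gene with the largest difference. The log2 difference of ob/ob against HFD was 0.87 (standard error 0.42, adjusted p = 1.00 with limma) for Hmox1, for which the 2 ob/ob mice did not overlap with the HFD mice. No other of the 10 genes was without overlap, in a comparison where 7.92% of all genes were higher and 5.42% were lower without overlap. At an unadjusted p under 0.05, 0 of the 10 genes differed in either direction, beside 2.28% of all genes that were higher and 1.63% that were lower. The differences of the other 9 genes were between -0.34 for Gclm and 0.36 for Srxn1. Mt1 differed by 0.11 and Mt2 by -0.07, with a standard error of 0.47 for each.

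For Mt1, Mt2, Hmox1 and Slc7a11, the genes with the most similar pattern were found by Pearson r over the 8 mice, as a description with no test, in which all values of a mouse share its library and tissue makeup. For Mt1 they were Cdc42bpg (r = 0.9955), Slc38a10 (r = 0.993) and Polr2e (r = 0.9925). For Mt2 they were Sec13 (r = 0.993), Asl (r = 0.990) and Cdc42bpg (r = 0.9895). Cdc42bpg was at 9.20 to 9.38 in LFD, and at 8.71 in HFD replicate 1 and 8.18 in ob/ob replicate 2. For Hmox1 they were Exoc1 (r = 0.9825), Rarg (r = 0.981) and Slc37a2 (r = 0.981), and for Slc7a11 they were Ccdc22 (r = 0.963), Cnot2 (r = 0.960) and Zfp317 (r = 0.953).

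Other genes of these pathways were described by lists, without a test of any list, and 0 of their genes had an adjusted p under 0.05. Their counts at an unadjusted p under 0.05 stand beside 11.5% of all genes that were higher and 8.35% that were lower in HFD, and beside 11.6% and 7.18% in ob/ob. Of 38 further genes of the NRF2 pathway, 12 were higher and 3 lower in HFD at an unadjusted p under 0.05, and for ob/ob the counts were 5 and 4. The ob/ob counts and the lower count in HFD were near the shares of all genes. The median log2 differences were 0.21 and 0.20. Gstm1, a glutathione transferase, was at 9.69 ± 0.08 (SD, n = 3) in LFD and 8.23 ± 0.81 (SD, n = 3) in HFD, a log2 difference of -1.46 (adjusted p = 0.18 with limma). In ob/ob the Gstm1 difference was -0.965. Abcc2, an export pump for conjugates, differed by 2.16 with a standard error of 1.77, and the HFD mice had an SD of 4.42. Ugdh, which makes UDP-glucuronate, and Aox1, an aldehyde oxidase, were higher in ob/ob than in LFD by 1.16 and 1.29 (adjusted p = 0.309 and 0.237). In HFD, Ugdh differed by 1.24 and Aox1 by 0.12. Among 28 antioxidant enzymes, 6 were higher and 4 lower in HFD at an unadjusted p under 0.05, and for ob/ob, near the shares of all genes, they were 4 and 3. Their median log2 differences were of the other sign, -0.11 and -0.20. Gpx7 and Gpx8 are glutathione peroxidase family members of the endoplasmic reticulum. Gpx7 had differences of 1.20 in HFD and 1.19 in ob/ob, and Gpx8 had 0.70 and 1.44. Prdx4, the peroxiredoxin of the same compartment, had -1.37 in HFD and -1.33 in ob/ob (adjusted p = 0.328 and 0.386).

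Of 23 measured genes of zinc and copper handling, 6 were lower and 2 higher at an unadjusted p under 0.05 in each obesity model, beside 8.35% lower and 11.5% higher of all genes in HFD and 7.18% and 11.6% in ob/ob. The median log2 differences were -0.24 in HFD and -0.15 in ob/ob. The mean level of the list was lowest in ob/ob replicate 2, at 8.25, and HFD replicate 3, at 8.31, the mice with the lowest acinar level, and the part of acinar cells was not tested. The zinc transporters Slc39a5 (ZIP5) and Slc30a2 (ZnT2) had the largest differences, both lower. Slc30a2 was at 7.21 to 7.41 in the LFD mice, at 5.22 to 5.74 in the HFD mice and at 4.19 and 6.82 in the ob/ob pair, with differences of -1.81 in each model (adjusted p = 0.192 and 0.223 with limma). Slc39a5 differed by -1.97 in HFD and by -2.52 in ob/ob (adjusted p = 0.233 and 0.224). The HFD mice had an SD of 0.26 in Slc30a2 and of 1.45 in Slc39a5.

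The ATF4 list of amino acid stress genes, which share regulation with Slc7a11, had 12 of 20 genes lower and 1 higher in HFD at an unadjusted p under 0.05, beside 8.35% and 11.5% of all genes, and 7 lower and 0 higher in ob/ob, beside 7.18% and 11.6%. Its median log2 difference was -0.89 in HFD and -0.91 in ob/ob. The mean level of this list was also lowest in the mice with the lowest acinar level, at 7.87 in HFD replicate 3 and 8.11 in ob/ob replicate 2, and it was highest among the obese mice in HFD replicate 1, at 8.77, where the LFD mice were at 8.95 to 9.26. The part of acinar cells in it was not tested. Slc7a5, a transporter of large neutral amino acids, was at 9.78 ± 0.13 (SD, n = 3) in LFD and 8.18 ± 0.12 (SD, n = 3) in HFD, a difference of -1.60 with a standard error of 0.20 (adjusted p = 0.124 with limma). In ob/ob it differed by -1.35. Fgf21, a stress-induced hormone, differed by -2.27 in HFD and -2.48 in ob/ob (adjusted p = 0.214 and 0.234). Asns, asparagine synthetase, differed by -1.60 in HFD and by -1.56 in ob/ob (adjusted p = 0.267 in ob/ob).

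Among 18 genes of haem and iron handling, 3 were higher and 0 lower at an unadjusted p under 0.05 in each obesity model, not far from the 11.5% and 11.6% of all genes that were higher, with medians of 0.30 and 0.26. Hp, which encodes the haemoglobin-binding protein haptoglobin, was at 7.94 to 8.68 in the LFD mice, at 9.20 to 10.20 in the HFD mice and at 9.79 and 10.45 in the ob/ob pair, with differences of 1.57 and 1.88 (adjusted p = 0.175 and 0.139 with limma). Heph, a copper-dependent iron oxidase, differed by 1.14 in HFD, and Slc11a1, an iron exporter of phagocyte vesicles, by 1.45 in ob/ob (adjusted p = 0.242 and 0.234). Heph differed by 0.27 in ob/ob and Slc11a1 by 0.85 in HFD. Of 14 measured oxidases and partners that produce reactive oxygen species, 5 were higher and 0 lower in each model at an unadjusted p under 0.05, beside 11.5% higher and 8.35% lower of all genes in HFD and 11.6% and 7.18% in ob/ob. Cybb and Ncf4, subunits of the phagocyte NADPH oxidase, were higher in ob/ob than in LFD by 1.42 and 1.42 (adjusted p = 0.178 and 0.231). In HFD they were higher by 0.88 and 0.79. Ncf1, another of its subunits, and Duoxa2, the maturation factor of DUOX2, were higher in HFD by 1.05 and 1.30 (adjusted p = 0.214 and 0.252). For both genes the HFD and LFD mice overlapped. In ob/ob, Ncf1 differed by 1.34 and Duoxa2 by -0.27. Markers of neutrophils and stroma also differed in level, although for neutrophils the ob/ob and LFD ranges overlapped. The log2 of the summed level was 8.95 to 10.03 in LFD, 10.43 to 11.72 in HFD and 9.86 to 10.11 in ob/ob for 8 measured neutrophil markers, and it was 13.61 to 13.89, 14.28 to 15.45 and 14.79 to 15.86 for 12 fibroblast markers. Their part in these values was not tested.

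The metallothioneins are also known as glucocorticoid response genes. Of 14 other genes of this response, 1 was higher and 5 lower in HFD at an unadjusted p under 0.05, beside 11.5% and 8.35% of all genes, and for ob/ob the counts were 1 and 2, beside 11.6% and 7.18%, with medians of -0.46 and -0.24. The mean level of the list was 7.93 to 8.28 in the LFD mice, 7.78 to 7.85 in the HFD mice and 8.01 and 8.12 in the ob/ob pair. Per1, which is also a clock gene, differed by -1.10 in HFD (standard error 0.23, adjusted p = 0.175 with limma) and by -0.33 in ob/ob. Zbtb16 differed by -1.46 in HFD and -1.23 in ob/ob, with overlap between the mice. Angptl4 differed by 0.84 in HFD and by 1.06 in ob/ob.

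**Figure D5:**
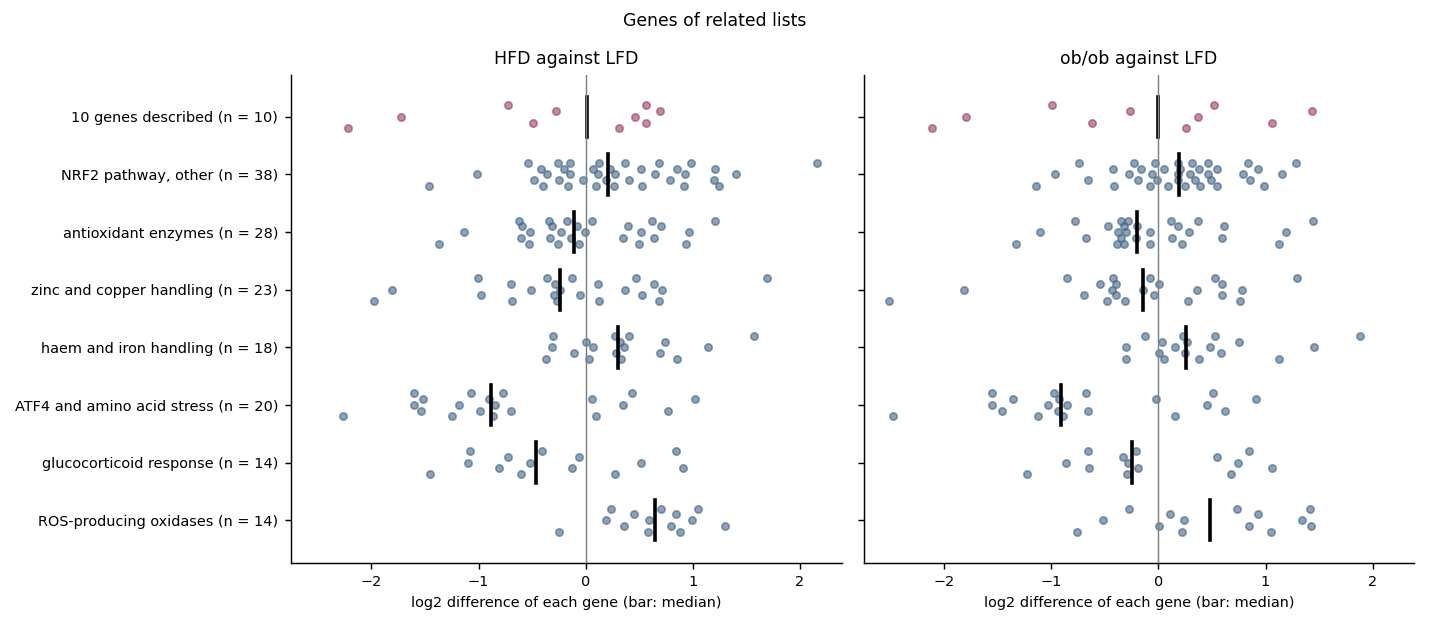
Each point is the log2 difference of 1 gene in HFD against LFD and in ob/ob against LFD, by list, and the bar is the median of the list. The median lies at -0.89 and -0.91 for the ATF4 and amino acid stress list and at 0.65 and 0.48 for the oxidases that produce reactive oxygen species.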

How the data were processed

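Per the labels and the methods of the study, the authors extracted total RNA from pancreas tissue, sequenced paired-end libraries, quantified Gencode M18 transcripts (GRCm38.p6) with Salmon 0.11.3, summarised them per gene with tximport and applied the rlog function of DESeq2 1.22.2. The authors deposited these rlog values, which are on a log2 scale, for 15047 gene symbols. The filter behind this number is not given in the sources used here. Depth is unknown, so no counting error could be given.

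For all genes, limma 3.58.1 (R 4.3.3) was run as 1 model of 8 mice with 3 group means, an empirical Bayes variance with a trend, and Benjamini-Hochberg adjustment over all 15047 genes at a threshold of 0.05. This step was tested on simulated data. The 10 genes, the lists and the alternatives were chosen with earlier results of these data known. From each pathway list, the genes named are the 2 with the largest difference in size in each comparison with LFD. Gss and Gsr are named in addition, beside the other glutathione genes. Levels of marker lists are means of rlog values, or the log2 of the summed linear values. Positions are those of Gencode M21 and of RefSeq (GRCm38.p6), the assembly used by the authors. Replicate numbers of the labels name different animals.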

Additional observations from a re-analysis of the deposited data

How the results depend on the processing

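Limits come first. Read depth is unknown, 2 ob/ob mice give a weak estimate of their spread, and leaving out 1 of them leaves a mouse that is assumed to vary like the others. Of 507 values of the 10 genes under the alternatives, 463 kept their direction and their side of the threshold, 30 changed sign and 14 passed the threshold. Many of these values could not change sign. The difference stays the same without the trend, with only the 2 groups compared and with a mean rlog of at least 5. It also stays the same on leaving out a mouse of the third group, and with a replicate block in HFD against LFD. Centring and quantile normalisation changed no sign of the 10 genes. Nqo1 has no value where a mean rlog of at least 5 was required. Leaving out the 2 mice with the lowest acinar level was chosen after seeing the data. The causes of the changes below were not tested.

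Without HFD replicate 1, Nfe2l2, Hmox1, Gclc, Mt1 and Mt2 passed the threshold in HFD against LFD. Hmox1 then also passed in ob/ob against LFD, where its difference was unchanged. With a weight for each mouse, 8 of the 10 genes passed in HFD against LFD (all but Nqo1 and Txnrd1), with HFD replicate 2 weighted at 9.36 and HFD replicate 1 at 0.273 by an estimate that stopped before converging. Genes called at an adjusted p under 0.05, 0 in each comparison as reported, numbered in HFD against LFD 1 with only the 2 groups compared, 6656 with a weight for each mouse, 1 without the 2 mice of lowest acinar level and 0 to 2812 on leaving out each mouse, the highest without HFD replicate 1. Between ob/ob and LFD they numbered 38 with only the 2 groups compared, 1 with the acinar level as a covariate and 0 to 89 on leaving out each mouse, with 61 without ob/ob replicate 1 and 89 without HFD replicate 1. Between ob/ob and HFD they numbered 1 with the covariate, 1 without the 2 mice and 0 to 1 on leaving out each mouse.

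Genes with an unadjusted p under 0.05 in HFD against LFD, 2985 as reported, numbered 7936 with a weight for each mouse, 1645 with the covariate and 1480 to 5445 on leaving out each mouse, lowest without HFD replicate 2. Between ob/ob and LFD, from 2831, they numbered 1522 with the covariate, 930 without the 2 mice and 752 to 4075 on leaving out each mouse, lowest without ob/ob replicate 2. Between ob/ob and HFD, from 588, they numbered 353 with only the 2 groups compared, 389 with a mean rlog of at least 5, 980 with a weight for each mouse, 1183 with the covariate, 344 without the 2 mice and 369 to 1117 on leaving out each mouse.

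Against LFD, leaving out 1 mouse also moved differences that kept their sign. In HFD the ranges were 0.36 to 0.85 for Nfe2l2, 0.30 to 1.02 for Hmox1, -0.39 to -0.12 for Gclm and 0.047 to 0.57 for Txnrd1. In ob/ob they were 0.21 to 0.84 for Nfe2l2, 0.14 to 0.38 for Nqo1, -1.33 to -0.65 for Gclc and -2.50 to -1.09 for Mt2. Signs changed as follows. In HFD against LFD, Nqo1 was at -0.078 with a weight for each mouse, -0.075 with the covariate, -0.19 without the 2 mice and -0.19 to 0.80 on leaving out each mouse, and with the covariate Txnrd1 and Srxn1 were at -0.049 and -0.055. For ob/ob and LFD, Nqo1 and Txnrd1 were at -0.32 and -0.019 with the covariate, and Slc7a11 was at -0.53 to 0.0020 on leaving out each mouse. For ob/ob and HFD, Nqo1 was at 0.32 with a weight for each mouse and 0.56 without the 2 mice, where Slc7a11 was at -0.059 and Mt2 at 0.35. On leaving out each mouse in that comparison, Nfe2l2 was at -0.35 to 0.28, Nqo1 at -0.54 to 0.45, Gclc at -0.60 to 0.078, Txnrd1 at -0.20 to 0.33, Srxn1 at -0.21 to 0.93, Slc7a11 at -0.037 to 0.50, Mt1 at -0.57 to 0.78 and Mt2 at -0.78 to 0.63.

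Replicate numbers name different animals and were not taken to pair the mice. Deviations from the group means had correlations of -0.28 to 0.59 for mice with the same number. For mice with different numbers they were -0.59 to 0.44. The deviations of the ob/ob pair mirror each other by construction, so these correlations cannot decide on pairing. With a replicate block, 0 genes were called in each comparison, 3255, 3243 and 467 genes had an unadjusted p under 0.05, and in ob/ob against HFD Nfe2l2, Nqo1 and Mt1 were at 0.049, 0.14 and -0.028. With the block, Nfe2l2 and Srxn1 in HFD against LFD and Srxn1 in ob/ob against LFD also had an unadjusted p under 0.05 (0.0418, 0.0339 and 0.00407 with limma). The block changed no other sign of the 10 genes, and none of them passed at an adjusted p under 0.05.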
